A study of Caenorhabditis elegans with 2 samples.

Results

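Among the 17654 peaks of the pooled list from a chromatin immunoprecipitation sequencing (ChIP-seq) study of HLH-15 in Caenorhabditis elegans embryos, 764 peaks, or 4.33%, had their summit within 100 bp of a gene annotated with the biotype ncRNA and more than 100 bp from every tRNA, snoRNA, snRNA and miRNA gene. They were chosen by position alone, from the summits on assembly ce11 and the gene annotation of the same assembly, and are called ncRNA-gene peaks here. They include 23 of the 407 peaks in the list that the authors kept by IDR, the irreproducible discovery rate, which scores whether a peak's rank holds in both replicates. That is 3.01% of the 764, against 2.31% of all pooled peaks. The rule left out 234 pooled peaks that had an ncRNA gene and also a tRNA, snoRNA, snRNA or miRNA gene within 100 bp, 96 of them in the IDR list.

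The study mapped where HLH-15, a transcription factor of the basic helix-loop-helix (bHLH) family, lies on chromatin. It holds 1 group of 2 libraries, labelled as biological replicates 1 and 2. Both came from whole hermaphrodite late embryos of strain OP566, collected 3 hours after synchronisation by egg bleaching. The strain carries unc-119(tm4063) III and wgIs566, and expresses HLH-15 with GFP-FLAG fused to the C terminus. The labels describe the pull-down as one with an antibody against GFP while the antibody label reads hlh-15, and they hold no second condition, so no contrast between conditions was made and no test was run. The libraries sample all cells of the embryo at once, and a tagged transgene need not have the level of the native protein.

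The signal of each peak is the authors' score, with no stated scale, and is used only within a list. Read numbers are not given, so the depth behind a peak is unknown. The pooled list keeps background peaks, and signals in it ran from 19.0 to 587, with 58.9 as the lowest in the IDR list. The 407 peaks of the IDR list are also the 407 strongest of the pooled list. A share in the IDR list is therefore also a share at or above that signal. Peaks of 1 pair of libraries are not replicates, and the Wilson 95% intervals given with shares count peaks or genes and do not measure the spread between embryos.

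The ncRNA biotype collects noncoding genes that the tRNA, snoRNA, snRNA and miRNA classes do not hold, mostly short and known only by a sequence name, along with some long noncoding RNA genes. A few have a known product. RNase P RNA (rpr-1) is the catalytic RNA that trims the 5′ end of tRNA precursors, RNase MRP RNA (mrpr-1) is its relative in ribosomal RNA processing, and the srpr genes encode the RNA of the signal recognition particle, which brings ribosomes with secretory proteins to the endoplasmic reticulum. In animals these RNAs are made by RNA polymerase III, which also makes tRNAs. That polymerase uses promoters inside the gene, the A box and B box of tRNA genes, or promoters upstream of it, a proximal sequence element followed by a TATA box. Factors of the bHLH family bind E-boxes, sites of the form CANNTG.

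Of the 23 ncRNA-gene peaks in the IDR list, 6 lay at 5 genes with a shared pair of upstream elements, rpr-1, mrpr-1, W01D2.7, W01D2.9 and F08G2.13. Another 4 lay at 3 loci whose sequence holds an A box followed by a B box, 3 lay at srpr genes, 1 lay beside a tRNA gene at the edge of the distance limit, and 9 lay at other ncRNA genes. The upstream regions of 4 of the 5 genes are shown because they hold both elements at nearly the same spacing, together with that of M163.12, the gene of a weaker ncRNA-gene peak with the same arrangement. Each is the 100 bases before the annotated 5′ end, on the strand of the gene, from the WBcel235 sequence in RefSeq, and capitals mark GTCNNCCG and TATATA.

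mrpr-1: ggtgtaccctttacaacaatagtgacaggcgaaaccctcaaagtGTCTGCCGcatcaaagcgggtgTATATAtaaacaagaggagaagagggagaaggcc
W01D2.7: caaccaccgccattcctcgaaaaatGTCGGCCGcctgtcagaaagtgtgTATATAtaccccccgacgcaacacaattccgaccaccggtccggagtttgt
W01D2.9: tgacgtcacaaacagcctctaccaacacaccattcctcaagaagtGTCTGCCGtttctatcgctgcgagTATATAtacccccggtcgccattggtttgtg
F08G2.13: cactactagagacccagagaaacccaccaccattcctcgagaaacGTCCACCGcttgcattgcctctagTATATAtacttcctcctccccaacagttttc
M163.12: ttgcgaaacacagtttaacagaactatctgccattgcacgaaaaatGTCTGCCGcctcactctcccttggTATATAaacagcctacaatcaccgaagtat

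These regions are chrII:7200133-7200232 (plus strand) for mrpr-1, chrII:14804402-14804501 (plus) for W01D2.7, chrII:14804695-14804794 (plus) for W01D2.9, chrII:13834524-13834623 (minus) for F08G2.13 and chrX:14477445-14477544 (plus) for M163.12, and none overlaps an exon of a protein-coding gene. The 8-base element and its spacing were read from the strongest ncRNA-gene peaks after their values were seen, so its presence there is a description. Over all 7764 ncRNA genes, the 8-base element stood in the 100 bases upstream of 86, or 1.11%, and TATATA in those of 272, or 3.50%. The ordered pair on the strand of the gene, 15 to 45 bp from start to start, stood upstream of 7 genes, or 0.0902% (Wilson 95% interval 0.0437 to 0.186), always 22 to 24 bp apart. Of these 7 genes, 6 had a pooled summit within 100 bp and 5 had one in the IDR list. The 7 are the 5 genes of the IDR list, M163.12, and K01B6.5, whose nearest pooled summit was 998 bp away with a signal of 24.0. The same pair stood upstream of 5 of 129 snRNA genes, or 3.88%, and of 2 of 19973 protein-coding genes, or 0.0100%. Of the 5 snRNA genes, 3 had a pooled summit within 100 bp and 2 had one in the IDR list. Of the 2 protein-coding genes, 1 had a pooled summit and 0 had one in the IDR list. The pair stood upstream of none of 346 snoRNA genes and 612 tRNA genes.

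**Figure D1:**
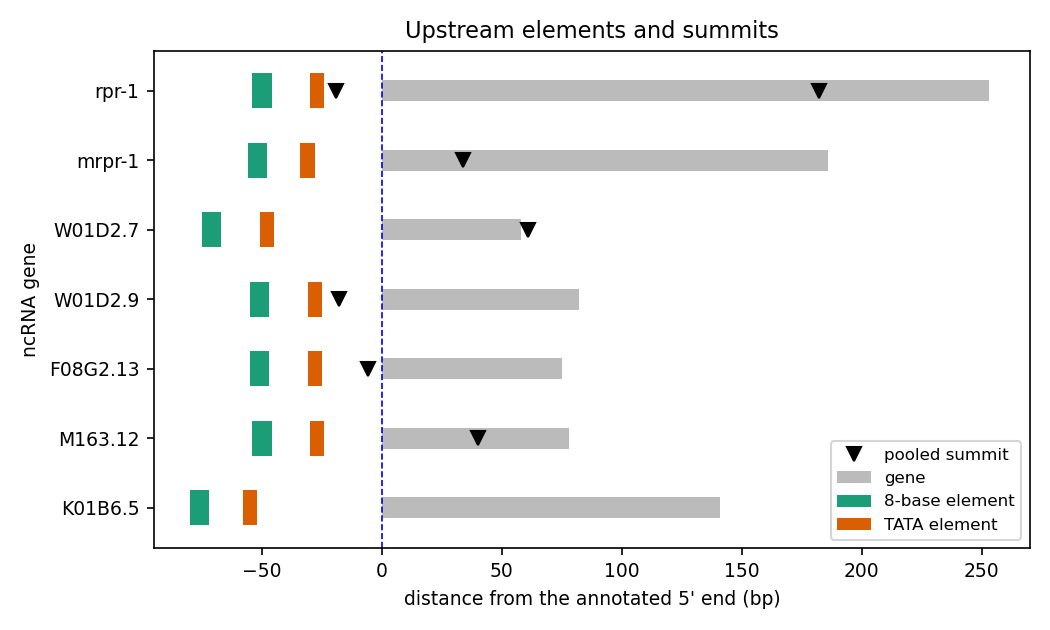
The 7 ncRNA genes with the ordered pair of upstream elements, drawn to scale along their strand with distance in bp from the annotated 5′ end. Grey bars are the genes, green and orange bars the 8-base element and TATATA, and triangles the summits of ncRNA-gene peaks. In 6 of the 7 genes at least 1 triangle lies near the gene, and K01B6.5 has none.

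The RNase P RNA gene rpr-1 (WBGene00045238, chromosome I, 13463955 to 13464207, plus strand) had the second strongest ncRNA-gene peak. Its signal was 165 in the pooled list, rank 26 of 17654, with 95.2 in the replicate 1 list (rank 38) and 67.1 in the replicate 2 list (rank 25). The pooled summit lay 19 bp upstream of the 5′ end, while the replicate summits lay 16 bp (replicate 1) and 32 bp (replicate 2) into the gene. Another summit, 182 bp into the gene, had a pooled signal of 72.4 (rank 259), with 21.8 in replicate 1 (rank 3430) and 25.5 in replicate 2 (rank 400). The gene lies in an intron of ints-8, which encodes a subunit of the Integrator complex, on the opposite strand, and the nearest protein-coding transcription start site (TSS), that of ints-8, was 910 bp from the stronger summit. Both replicates therefore placed the stronger summit among their 38 strongest peaks, whereas the weaker summit ranked far lower in replicate 1 than in the pooled list.

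The RNase MRP RNA gene mrpr-1 (WBGene00045095, chromosome II, 7200233 to 7200418, plus strand) had 1 ncRNA-gene peak, with a summit 34 bp into the gene and a signal of 100.4 in the pooled list (rank 119). Replicate 1 gave it 71.2 (rank 91) and replicate 2 gave it 33.4 (rank 185). It lay outside protein-coding genes, 282 bp upstream of the TSS of pcrg-1.

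The genes W01D2.7 and W01D2.9 lie side by side on chromosome II, and their summits were 102 (rank 110) and 97.0 (rank 125) in pooled signal. The W01D2.7 summit lay 61 bp from the 5′ end, 4 bp past the end of its 58-base annotation, with 66.4 in replicate 1 (rank 113) and 50.6 in replicate 2 (rank 67). The W01D2.9 summit lay 18 bp upstream of the 5′ end, with 43.4 in replicate 1 (rank 307) and 39.8 in replicate 2 (rank 119). Both summits also lay upstream of W01D2.3, 254 bp and 468 bp from its TSS. In W01D2.7 the elements start 75 and 51 bp before the annotated 5′ end, farther than the 54 to 56 and 30 to 34 bp of rpr-1, mrpr-1, W01D2.9, F08G2.13 and M163.12.

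The F08G2.13 summit lay 6 bp upstream of that 75-base gene, with a pooled signal of 94.0 (rank 136), 66.0 in replicate 1 (rank 115) and 33.8 in replicate 2 (rank 176). An snRNA gene, F08G2.9, was 1408 bp away. M163.12 had its summit 40 bp into a 78-base gene, with a pooled signal of 49.1 (rank 607), below the IDR threshold, and an snRNA gene 639 bp away.

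The strongest ncRNA-gene peak lay at a locus with the layout of a tRNA gene. The A box was searched as TGGNNNAG and the B box as GTTCNANNC, on both strands, 25 to 95 bp from start to start. Both spellings were chosen after the peaks were seen. The sequences below run from 15 bases before the A box to 15 bases after the B box, except that of K02D3.5, which is the whole gene. Both boxes stood at 6 loci. The 4 with the strongest peaks are shown because 3 of them are near copies of each other on chromosome X and the remaining one is unrelated to them, and K02D3.5 because it is a further copy that lacks the A box as spelled and has no peak nearby. Capitals mark the boxes.

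C14F11.14: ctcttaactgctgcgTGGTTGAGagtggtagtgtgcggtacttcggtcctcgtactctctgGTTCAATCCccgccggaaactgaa
ZK816.9: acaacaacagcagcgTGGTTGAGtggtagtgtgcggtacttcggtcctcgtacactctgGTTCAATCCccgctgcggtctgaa
T22B2.9: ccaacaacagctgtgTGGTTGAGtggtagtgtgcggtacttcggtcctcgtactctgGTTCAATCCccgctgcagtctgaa
K02D3.5: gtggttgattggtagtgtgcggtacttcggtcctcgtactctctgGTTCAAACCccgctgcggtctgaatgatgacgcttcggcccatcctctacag
T28D6.13: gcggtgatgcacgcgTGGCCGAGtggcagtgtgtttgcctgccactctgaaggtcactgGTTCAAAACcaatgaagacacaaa

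The regions are chrX:6207839-6207923 (plus strand) for C14F11.14, chrX:3348036-3348118 (plus) for ZK816.9, chrX:3914469-3914549 (minus) for T22B2.9, chrX:13697692-13697788 (plus) for K02D3.5 and chrIII:11371407-11371489 (minus) for T28D6.13. Over these stretches ZK816.9 and T22B2.9 were 92.8% identical to each other, and 82.4% and 83.5% identical to C14F11.14. T28D6.13 was 56.3% to 57.5% identical to the other 3. The search for further copies used its annotated gene, 11371455 to 11371530, and found no other gene with 50 bases at 80% identity. That gene covers only part of the printed stretch and leaves out the B box. Copies of the whole stretch were therefore not searched for. K02D3.5 matched C14F11.14 at 90.9% over 99 aligned bases. It holds a B box but no match to TGGNNNAG, and its nearest pooled summit was 1943 bp away with a signal of 20.8. The sources used here do not say how reads that match several of these copies were placed.

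C14F11.14 (WBGene00197710, chromosome X, 6207835 to 6207981, plus strand) had a pooled signal of 258, rank 7 of 17654, with 178 in replicate 1 (rank 6) and 83.7 in replicate 2 (rank 13). The summit lay 3 bp into the gene and 151 bp upstream of the TSS of the protein-coding gene T13C5.6, and the nearest tRNA gene was 12232 bp away. A weaker summit 57 bp beyond the gene's 3′ end had a pooled signal of 99.0 (rank 120). The replicate peaks with the summits nearest to it had 20.0 (rank 4931) and 15.9 (rank 2682), and the strong peaks of both replicate lists that overlapped it were those of the first summit. The first summit is therefore high in all 3 lists, and the second is high in the pooled list alone.

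ZK816.9 (WBGene00220245), which overlaps ZK816.8 on the opposite strand, had its summit 11 bp into the gene, with a pooled signal of 68.4 (rank 291), 52.0 in replicate 1 (rank 194) and 17.7 in replicate 2 (rank 1640). The summit at T22B2.9 had 34.2 (rank 2120), below the IDR threshold. T28D6.13 (WBGene00199578) shares its locus with T28D6.15, on whose strand the boxes lie, and its summit is in an intron of tba-7, an alpha tubulin gene. The peak had a pooled signal of 113 (rank 88), 69.0 in replicate 1 (rank 99) and 42.9 in replicate 2 (rank 101). C14F11.14, T28D6.13 and ZK816.9 stood in that order by signal in all 3 lists.

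The ordered boxes were found in the 201 bp windows around 6 of the 764 ncRNA-gene summits, or 0.785%, against 101 of the 16424 pooled summits at none of these gene classes, or 0.615%, and 152 of 311 summits at tRNA genes, or 48.9%. Of the 6, 3 were in the IDR list, and of the 101, 2 were. The loci among the 6 whose sequences are not shown, Y60A3A.32 on chromosome V and Y6B3B.12 on chromosome I, had pooled signals of 28.5 (rank 4549) and 20.0 (rank 15212). The B box spelling alone was found in 6.02% of ncRNA-gene windows, against 7.96% of all other pooled windows. It was in 4 of the 23 in the IDR list, against 40.6% of the other IDR peaks. The upstream pair, searched in the same windows on both strands, was found around 6 ncRNA-gene summits, or 0.785%, against 4 of all 16890 other pooled summits, or 0.0237%. These 6 differ from the 6 genes with a summit described above. The window of W01D2.7 did not hold the pair. That of T05G5.13 (29.5, rank 3957) did, though the gene is not among those with the pair upstream. Since the pair was spelled from the strongest ncRNA-gene peaks, and 4 of the 6 were in the IDR list, this contrast is a description. In windows at the middle of 7252 ncRNA genes clear of small RNA genes, the boxes stood in 0.896% and the pair in 0.0965%.

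Signal recognition particle RNA genes had a summit at all 5 annotated copies, with 3 in the IDR list. The pooled signals were 87.1 at srpr-2.1 (rank 166), 82.1 at srpr-2.2 (rank 193), 72.2 at srpr-1.2 (rank 261), 49.7 at srpr-1.1 (rank 583) and 42.4 at srpr-3 (rank 962). Replicate 1 gave 50.9, 53.4, 53.8, 44.7 and 17.0 in the same order, and replicate 2 gave 36.4, 21.4, 20.3, 9.12 and 21.9. These are the signals of the replicate peaks with the nearest summits. In replicate 1 the 4 copies on chromosome III were close to each other and srpr-3 was lowest. By the same matching, srpr-2.1 was highest and srpr-1.1 lowest in replicate 2. There the matched peaks of srpr-1.1 and srpr-2.2 ranked 18814 and 710, but stronger replicate 2 peaks also overlapped both. The order of the copies in replicate 2 therefore depends on the matching rule. The sequence of srpr-2.1 (chrIII:5211220-5211518, plus strand) is shown because the copies are near identical, with capitals at its bases that differ from srpr-3 on chromosome V.

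srpr-2.1: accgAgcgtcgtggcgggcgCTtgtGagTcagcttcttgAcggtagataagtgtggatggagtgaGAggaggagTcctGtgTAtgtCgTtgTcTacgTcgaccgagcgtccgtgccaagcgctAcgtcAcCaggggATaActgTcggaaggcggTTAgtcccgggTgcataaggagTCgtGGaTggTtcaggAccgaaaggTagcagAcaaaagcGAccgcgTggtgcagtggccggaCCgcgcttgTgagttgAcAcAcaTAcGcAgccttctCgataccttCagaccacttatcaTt

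The 4 copies on chromosome III were 94.0% to 99.0% identical over 299 aligned bases, and srpr-3 was 81.7% to 82.7% identical to them. Reads from 1 copy may therefore have been placed at another, and the separate signals of srpr-2.1 and srpr-2.2, which differ at 3 of 299 bases, are uncertain. The summits lay at different points of these like genes, 267 bp from the 5′ end in srpr-2.1, 238 bp in srpr-1.2, 58 bp in srpr-2.2 and 167 bp in srpr-3, and 6 bp past the 3′ end of srpr-1.1. The srpr-2.2 gene lies in an intron of klp-6, a kinesin gene, and srpr-1.2 in an intron of ckb-2, a choline kinase gene.

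The other named ncRNA genes had little or no signal. The summit at tts-2 had 22.1 in the pooled list (rank 11390), with 25.4 in replicate 1 and 13.6 in replicate 2. The nearest summits to rncs-1, linc-171, yrn-1 and tts-1 lay outside the 100 bp limit, at 361, 303, 1015 and 2005 bp.

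The 9 IDR-list peaks at other ncRNA genes had pooled signals of 65.6 to 121, with a median of 74.4. The strongest, at F52D10.9 on chromosome X, had 121 (rank 77), with 73.5 in replicate 1 (rank 82) and 47.2 in replicate 2 (rank 81), and lay 734 bp upstream of ftt-2, which encodes a 14-3-3 protein. K10H10.14 on chromosome II had 101.5 (rank 115), with 69.5 in replicate 1 (rank 97) and 32.7 in replicate 2 (rank 195), and its nearest protein-coding TSS, that of dhs-8, was 1004 bp away. Its summit window, chrII:14496972-14497072 (plus strand), is shown because it holds a B box with no A box as spelled, near its right end.

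K10H10.14: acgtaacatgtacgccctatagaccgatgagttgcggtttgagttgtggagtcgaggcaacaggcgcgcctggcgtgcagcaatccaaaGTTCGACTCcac

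A protein-coding TSS was within 1 kb of 5 of these 9 peaks. The F57B10.17 summit (84.4, rank 185) lay 10 bp upstream of the TSS of tre-1, a trehalase gene. W02F12.11 (67.5, rank 297) lay 169 bp upstream of dlst-1, which encodes a subunit of the oxoglutarate dehydrogenase complex, F09E5.18 (67.5, rank 296) 243 bp upstream of F09E5.11, and F31F7.8 (74.4, rank 243) 390 bp upstream of the kinase gene mrck-1. At such sites the promoter and the ncRNA gene cannot be told apart as the position of the peak. The remaining 4 were K10H10.14, F13D11.18 (75.3, rank 237), whose nearest TSS was 5641 bp away, F31E8.10 (68.6, rank 290) and F48C1.13 (65.6, rank 318), which lay in an intron of let-526.

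One IDR-list peak stood at the edge of the rule. The F35H8.10 summit lay 98 bp from that ncRNA gene and 107 bp from a tRNA gene that overlaps it on the opposite strand, with a pooled signal of 72.5 (rank 256), 30.6 in replicate 1 and 31.8 in replicate 2. Another peak, with a summit 22 bp from the same tRNA gene, had 108 (rank 92) and was not counted among the ncRNA-gene peaks. Below the IDR threshold, the summits at Y92H12A.8 (53.1) and C04A2.11 (51.9) lay 97 and 98 bp from the ncRNA gene and 108 bp from a tRNA gene each. Summits 91 to 100 bp from an ncRNA gene numbered 48 with a median signal of 26.2, and summits just outside, at 101 to 110 bp, numbered 46 with a median of 25.5.

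**Figure D2:**
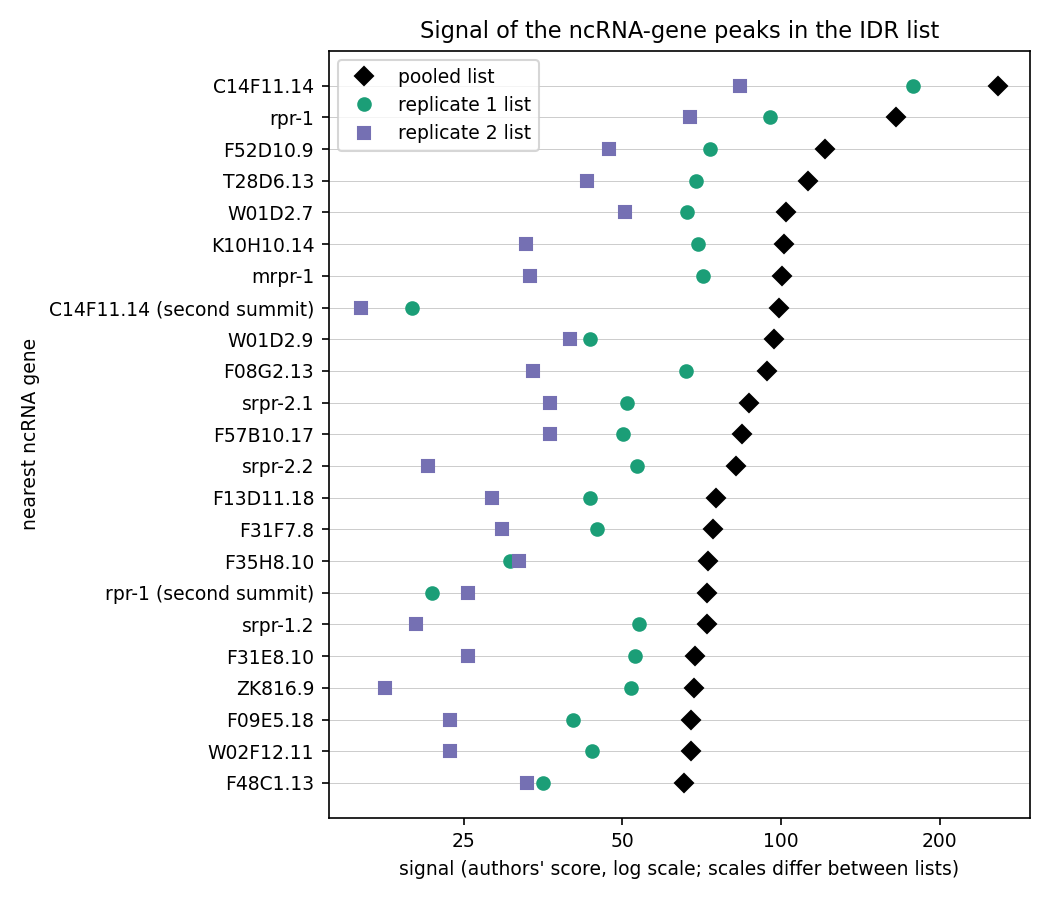
Signal of the 23 ncRNA-gene peaks in the IDR list, in order of pooled signal, in the pooled list (diamonds), the replicate 1 list (circles) and the replicate 2 list (squares), on a log axis. Scales differ between lists, so only the order within 1 list can be read. The second summits of C14F11.14 and rpr-1 have the lowest circles, at 20.0 and 21.8, and the first summit of C14F11.14 leads in all 3 lists.

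Of all 764 ncRNA-gene peaks, 28 overlapped one of the 407 strongest peaks of each replicate list, or 3.66% (Wilson 95% interval 2.55 to 5.25), against 1.93% of all pooled peaks. Where the summits themselves had to lie within 100 bp, 12 did so, or 1.57% (interval 0.901 to 2.73), against 1.28% of all pooled peaks, a value inside that interval. Some peak of both lists overlapped 439, or 57.5%, against 47.5% of the other pooled peaks. A list kept by IDR favours peaks on which the replicates agree by construction. Here it is also the 407 strongest pooled peaks, so being in it does not by itself measure agreement. Of the 23 in that list, 22 overlapped one of the 407 strongest replicate 1 peaks, 19 one of the 407 strongest replicate 2 peaks and 18 did both, or 78.3%, against 62.0% of the other IDR peaks. With summits within 100 bp, 12 of the 23 did both, or 52.2%, against 55.7% of the other IDR peaks. The exception in replicate 1 was F48C1.13, at rank 530, and those in replicate 2 were srpr-1.2, ZK816.9, F09E5.18 and W02F12.11, at ranks 517 to 1640. The second rpr-1 summit counts in replicate 1 through a stronger peak that overlaps it, since the peak with the nearest summit ranked 3430. Spearman's rho between the replicates' signals was 0.21 over these 439 and 0.56 over the 23, as descriptions across peaks of 2 libraries.

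**Figure D3:**
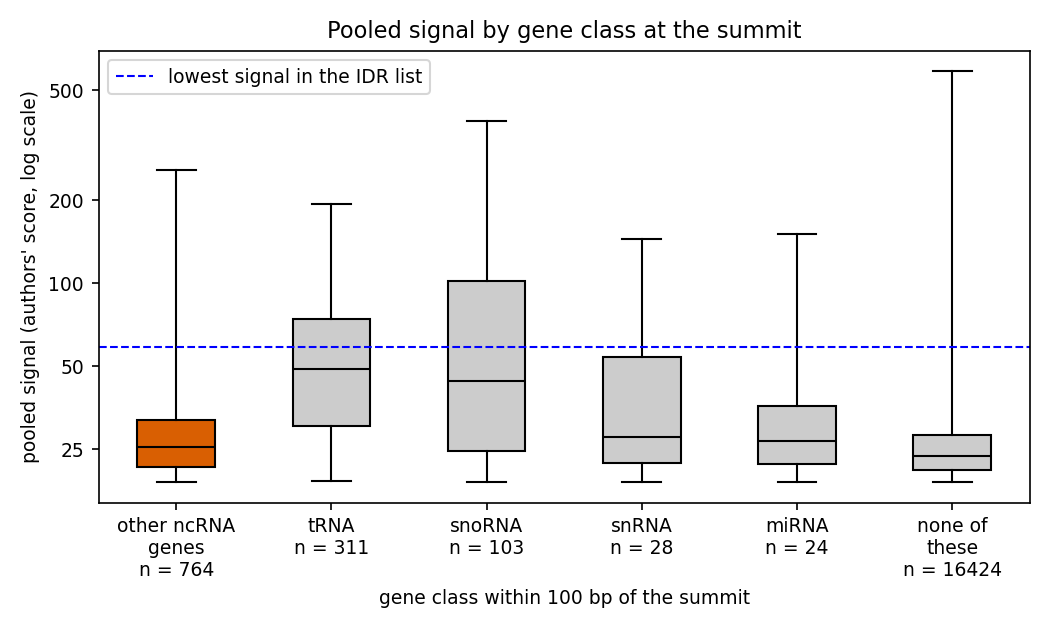
Pooled signal on a log axis of peaks at other ncRNA genes (orange) and of pooled peaks at tRNA, snoRNA, snRNA and miRNA genes or at none of these (grey), with the number of peaks under each. Boxes span the quartiles with the median as a line, whiskers run from the lowest to the highest value, and the dashed line is the lowest signal in the IDR list, 58.9. The box of the ncRNA-gene peaks lies close to that of peaks at none of these genes. Its median lies below those of tRNA and snoRNA genes, whose boxes overlap it in part.

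The typical ncRNA-gene peak was weak. The median pooled signal was 25.5 (quartiles 21.5 and 31.9), against 23.8 for all other pooled peaks, 48.8 for the 311 peaks at tRNA genes, 44.1 for the 103 at snoRNA genes and 27.6 for the 28 at snRNA genes. The share in the IDR list was 3.01% (Wilson 95% interval 2.01 to 4.48), and over all pooled peaks it was 2.31%, a value inside that interval. At tRNA genes it was 41.2%, at snoRNA genes 43.7% and at summits with none of these genes 1.24%. The weakest ncRNA-gene peak in the IDR list was that of F48C1.13 with 65.6, and the strongest below the threshold was that of F54E4.5 with 58.6, rank 416. Next below it was that of Y106G6E.7 on chromosome I with 56.7, at rank 304 in replicate 1 and 12592 in replicate 2.

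**Figure D4:**
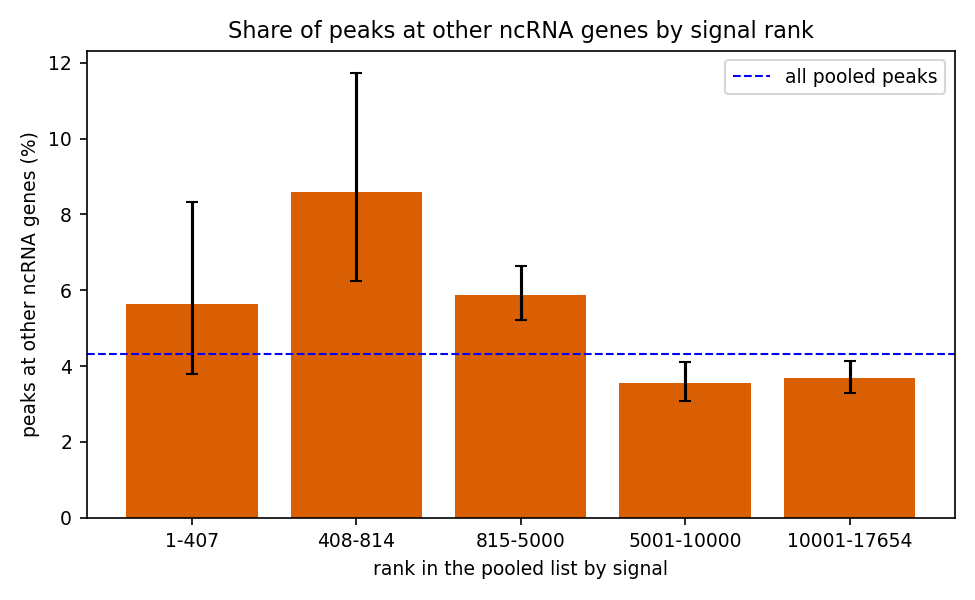
Share of pooled peaks that are peaks at other ncRNA genes (percent, bars from 0) in blocks of rank by pooled signal, with Wilson 95% intervals over peaks as error bars and the share over all pooled peaks, 4.33%, as a dashed line. The block of ranks 408 to 814, just below the IDR list, has the tallest bar at 8.60%, and both blocks beyond rank 5000 lie below the line.

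By rank, ncRNA-gene peaks made up 5.65% of the IDR list (23 of 407, interval 3.80 to 8.34), 8.60% of the next 407 peaks (35, interval 6.25 to 11.7) and 5.88% of the peaks from there to rank 5000. They made up 3.56% of ranks 5001 to 10000 and 3.68% of the rest. All bases within 100 bp of an ncRNA gene and over 100 bp from the small RNA genes cover 2.20% of the genome, a share that takes no account of which bases reads can be mapped to.

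Few ncRNA genes had a summit. Of the 7260 ncRNA genes that are more than 100 bp from any tRNA, snoRNA, snRNA or miRNA gene, 886, or 12.2% (Wilson 95% interval 11.5 to 13.0), had a pooled summit within 100 bp, and 28, or 0.386%, had one in the IDR list. Over all 7764 ncRNA genes, of which 908 were reached, longer genes were reached more often, as the rule itself favours. The shares were 7.70% of genes up to 100 bases, 11.6% of those of 101 to 200, 17.5% of those of 201 to 400 and 21.0% of the 167 genes over 400. These counts include genes within 100 bp of a small RNA gene, where the rule can bar a peak. Of the 46 peaks at genes over 400 bases, 0 were in the IDR list, too few peaks to set against the 2.31% of all pooled peaks. The X chromosome held 248 of the 764 peaks, or 32.5%, and 2520 ncRNA genes, also 32.5%. The 23 in the IDR list were 8 of the 111 ncRNA-gene peaks on chromosome II, 5 of the 248 on X and 4 of the 86 on I. They were also 4 of the 89 on III, 2 of the 138 on V and 0 of the 92 on IV. At the 2.31% of all pooled peaks, few or none of 92 peaks would be in the list. Differences between chromosomes were not tested.

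**Figure D5:**
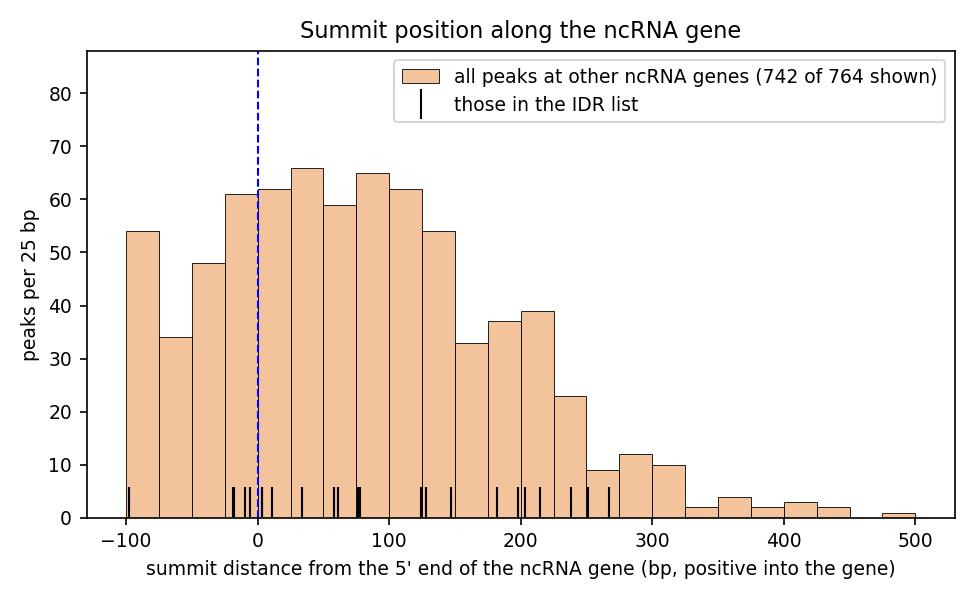
Number of ncRNA-gene peaks per 25 bp of summit distance from the 5′ end of the nearest ncRNA gene, in bp along its strand, with the 5′ end as a dashed line and the 23 IDR-list peaks as ticks at the foot. The plot shows the 742 summits up to 500 bp, and the left edge is set by the 100 bp limit. Summits spread over the gene with no single position holding most of them.

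The summit lay inside the ncRNA gene in 388 peaks, or 50.8% (Wilson 95% interval 47.3 to 54.3), and in 15 of the 23 in the IDR list. It lay upstream of the 5′ end in 197 and beyond the 3′ end in 179. For the 23, the summit of the matched replicate peak stood a median of 15 bp (replicate 1) and 35 bp (replicate 2) from the pooled summit, in either direction, and for all ncRNA-gene peaks with a match 33 and 46 bp. Short offsets, such as the 19, 18 and 6 bp of the summits from the 5′ ends of rpr-1, W01D2.9 and F08G2.13, are within that spread. The largest among the 5 genes with the upstream pair was at F08G2.13, whose replicate 2 summit lay 136 bp from the pooled one. The median distance from the 5′ end was 74 bp into the gene, with quartiles of -5 and 154 bp, for genes with a median length of 146 bases. For 186 peaks more than 1 ncRNA gene was within 100 bp, often an overlapping pair on opposite strands, so the gene named for them is 1 of several.

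A protein-coding TSS lay within 1 kb of 299 ncRNA-gene summits, or 39.1%, against 46.7% of all other pooled peaks. In the IDR list the share was 16 of 23, or 69.6% (interval 49.1 to 84.4), against 63.5% of the other 384 IDR peaks. Among the ncRNA-gene peaks within 1 kb of a TSS, 5.35% were in the IDR list (interval 3.32 to 8.51), and among those farther away 1.51% (0.731 to 3.07). Other pooled peaks gave 3.10% and 1.55%. Of the 764, 444 lay outside protein-coding genes, 263 in introns, 26 in coding exons, 20 in 5′ UTRs and 11 in 3′ UTRs. Coding exons held 3.40% of the ncRNA-gene peaks, against 18.3% of the other pooled peaks. The rule fixes where ncRNA-gene peaks can lie, and the share of all ncRNA genes in coding exons was not counted. In the 320 peaks inside a protein-coding gene, the ncRNA gene lay on the strand opposite to the host in 239 and on the same strand in 81. The strands of all ncRNA genes inside protein-coding genes were not counted, so this split cannot be read as particular to genes with a peak.

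The windows of 100 bp to each side of ncRNA-gene summits had a median GC content of 43.3%, against 36.8% for other pooled peaks and 34.8% for equally wide windows whose centres lie 500 bp from the same summits. Windows at the middle of 7252 ncRNA genes clear of small RNA genes had 41.8%, close to the summits. The 23 windows in the IDR list had 48.8%, against 44.3% for the other IDR peaks.

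Each motif was counted in these windows on both strands. CANNTG, the E-box bound by bHLH factors in general, was found in 51.8% of ncRNA-gene windows, against 51.7% of other pooled windows and 53.5% of flanking windows. In the IDR list it was found in 11 of 23, against 51.8% of the other IDR peaks. CAAGTG was found in 8.64%, against 8.09% of other pooled windows. It was in 2 of the 23, at F31F7.8 and srpr-1.2, against 12.2% of the other IDR peaks. CACATG was found in 7.85%, against 6.43%, and in 1 of the 23, that of W01D2.7, against 12.0% of the other IDR peaks. CAGCTG was found in 4.84%, against 4.03%, and in 1 of the 23, against 3.13% of the other IDR peaks. CACGTG was found in 3.01%, against 3.58%, and in 0 of the 23, against 3.13% of the other IDR peaks. CACCTG was found in 5.37%, against 5.13%, and in 0 of the 23, against 3.39% of the other IDR peaks. With shares this low, 0 of 23 does not set these windows apart from the others.

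CCGCAC was found in 6.15% of ncRNA-gene windows, against 4.15% of other pooled windows. CGCACA, which can share its last or first bases with it, was found in 8.38%, against 6.04%. In the IDR list each of these motifs was found in 9 of 23, or 39.1%, with 10 windows holding at least 1 of them and 8 holding both. The 10 windows were those of the strongest summits of C14F11.14 and rpr-1 and those of F57B10.17, F13D11.18, F35H8.10, F31E8.10, ZK816.9, F09E5.18, W02F12.11 and F48C1.13. Of the other IDR peaks, 25.3% held at least 1 of these motifs. At C14F11.14, ZK816.9 and T22B2.9 the match lies in the sequence shared by the copies, between the boxes printed above, where it reads gtgcgg on the printed strand. The copy K02D3.5 holds the same letters before its B box, though its nearest pooled summit was 1943 bp away. Both motifs were taken from earlier results on these same peaks. Among ncRNA-gene peaks, 11.5% of the 87 with at least 1 of these motifs were in the IDR list (interval 6.37 to 19.9), and 1.92% of the 677 with neither were (1.13 to 3.26). The median signals were closer, 27.1 with and 25.2 without. The other pooled peaks differed in the same direction. Of the 1396 with at least 1 of these motifs, 97 were in the IDR list, against 2.27% of all other pooled peaks. The difference is therefore not particular to ncRNA-gene peaks.

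GAGAGA was found in 28.4% of ncRNA-gene windows, against 13.2% of other pooled windows and 13.1% of flanking windows, and in 24.5% of windows at the middle of ncRNA genes. GGTTCGA, a B box spelling of tRNA genes, was found in 1.57% of ncRNA-gene windows, against 2.59% of other pooled windows and 56.3% of windows at tRNA genes. It was in 0 of the 23, against 24.2% of the other IDR peaks. TATAAA was found in 12.0%, against 18.9% of other pooled windows, and TTTTT in 75.5%, against 88.1%. These shares lay closer to those at the middle of ncRNA genes, 13.4% for TATAAA and 77.6% for TTTTT, than to those of the other pooled peaks.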

How the data were processed

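Peak lists of ChIP-seq from 2 libraries of 1 group were read on assembly ce11. Per the notes deposited with the samples, the authors derived the replicate and pooled lists from alignments with a control library and the IDR list from those lists. Aligner and peak caller: not given in the sources used here. Each peak's deposited signal is the authors' score, and the other deposited column used is the summit offset, taken as start plus offset plus 1. The pooled list held 17654 peaks, the IDR list 407, replicate 1 21250 and replicate 2 30000.

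Summits were set against Ensembl release 115 (WBcel235) and the RefSeq sequence of the same assembly. A peak was assigned to the nearest ncRNA gene, with ties going to a gene with a symbol and then to the shorter gene. Replicate peaks were matched by an overlap of 1 bp, taking the nearest summit. A peak in the strongest 407 of a replicate overlaps any of those. Motif windows ran 100 bp to each side. Copies were compared with blastn 2.17.0 (word size 7, e-value 1e-06) and global alignments in Biopython 1.88. Intervals are Wilson 95% intervals from SciPy 1.17.1, and read depth is unknown. Scripts ran in Python 3.11.15 and were tested on simulated data. ce10 lists were not used.

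The 764 peaks, the 12 listed motifs and the gene lists were chosen with earlier results of these data known, and GTTCNANNC, GTCNNCCG, TATATA and TGGNNNAG were added after the strongest peaks were seen. The genes named are those of every IDR-list peak, of the 25 strongest, of listed ncRNA families, of peaks at the limits of the rule, and their host or nearest protein-coding genes. M163.12, T22B2.9, K02D3.5, K01B6.5, T05G5.13, Y60A3A.32, Y6B3B.12, Y92H12A.8 and C04A2.11 were named after their values were seen. No test was run, and the alternatives tried are described in the closing section.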

Additional observations from a re-analysis of the deposited data

How the results depend on the processing

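Of 74 alternative settings over the results given, 53 left the value inside the 95% interval of the reported one and 21 did not. The share of ncRNA-gene peaks in the IDR list fell outside it under 1 setting, the strongest 204 of the IDR list, with 1.70%. A shorter list lowers this share for any set of peaks. Of those 204 peaks, 13, or 6.37%, were ncRNA-gene peaks, against 5.65% of the IDR list. The share of ncRNA genes reached was 0.386% with IDR peaks only, 10.5% with peaks over 250 bp from every protein-coding TSS, 11.3% with overlapping peaks merged, 6.13% with the summit inside the gene and 18.8% within 250 bp. The share found by both replicate lists was 57.5% with any replicate peak and 1.57% with summits within 100 bp, and the share near a TSS was 26.3% at 500 bp. Median GC was 44.3% with summits inside the gene, 40.8% within 250 bp and 41.4% in windows reaching 200 bp from the summit. In windows reaching 50 and 200 bp, CANNTG was in 29.2% and 75.4%, CCGCAC in 2.88% and 11.7% and GAGAGA in 17.3% and 41.9%, as the window length itself sets, and GAGAGA was in 24.9% with summits within 250 bp. Among the settings added after the data were seen, the A box and B box pair was in 2.75% of windows reaching 200 bp (21 peaks, 9 of them with a tRNA gene within 300 bp). The cause was not tested for the others.

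Applied to 1 replicate list alone, with its 407 strongest peaks in place of the IDR list, the rule gave, for the replicate 1 list and then the replicate 2 list, shares in that list of 3.51% and 2.62%, shares of ncRNA genes reached of 12.5% and 15.7%, shares near a TSS of 41.8% and 41.2%, shares with the summit inside the gene of 53.0% and 52.5%, and median GC of 42.8% and 42.3%. In the same order, CANNTG was in 49.7% and 52.2% of windows, CCGCAC in 6.02% and 6.96% and GAGAGA in 26.7% and 26.5%. The replicate 2 list is the longer one and gave the higher share of genes reached. The 407 strongest were taken from 21250 peaks in replicate 1 and 30000 in replicate 2, against 17654 in the pooled list. They are therefore a smaller share of either replicate list, and 3.51% and 2.62% cannot be set against the share over all pooled peaks. They stand for 28 of 797 and 26 of 991 ncRNA-gene peaks, both higher than the share over all peaks of the same list. No paired analysis was possible because the study has 1 group and no contrast between conditions. Depth is unknown, so no limit on undetected peaks can be given.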
